A study of Apis mellifera carnica with 38 samples.

Results

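In the fat bodies of honey bee queens (Apis mellifera carnica), 100 genes were chosen because their mean level was higher after an injection of Hayes solution than in untreated queens, and higher again after an injection of seminal fluid or semen. The deposited table held raw read counts of 12332 genes in 38 libraries, and each count was scaled to its library's total on genes (CPM). Among the 7484 genes with a mean of at least 5 CPM over the 20 fat body libraries, genes were ranked by the smaller of their 2 steps, HS minus V and seminal fluid with semen minus HS, on the scale of log2(CPM + 1), and the first 100 were taken. Members were thus selected on their fat body values in all 4 groups, and those values are described without a test. The tests below concern semen against seminal fluid in fat bodies, and the brains, which the choice did not use.

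All 20 queens were unmated adult daughters of 1 singly inseminated queen. They were injected into the abdomen about a week after emergence with seminal fluid (SF), semen (SE) or Hayes solution (HS), the saline in which semen is diluted, or were left untreated as virgins (V), and were collected several days later. Single queens were sequenced, with 5 fat bodies in each group and 3 SF, 5 SE, 5 HS and 5 V brains from 18 of the same queens. The seminal fluid was the supernatant of semen that had been diluted with Hayes solution and spun, so that the dose of seminal fluid cannot be assumed equal in SF and SE queens. V queens received no injection at all, so that the wound and the saline cannot be told apart in the first step. The fat body samples were abdominal cuticles lined with fat body, and in bulk tissue fewer cells of a type and less RNA per cell cannot be told apart.

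The fat body is the insect counterpart of liver and adipose tissue. It makes the yolk protein vitellogenin and the hexamerin storage proteins, and it secretes antimicrobial peptides into the hemolymph when pattern recognition proteins, serine protease cascades and the Toll and Imd pathways are triggered. Clip-domain serine proteases pass such signals on in the hemolymph, and serpins such as antitrypsin block proteases. In Drosophila females, proteins of the seminal fluid change the activity of genes in several tissues after mating.

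Between 22535778 and 47369758 reads were obtained per library, of which 6525132 to 12391445 were counted on genes in SF, 4832119 to 12560312 in SE, 7869541 to 13212533 in HS and 16332047 to 29963718 in V fat bodies. The percentage of all reads that did not align (unaligned share) was 49.3 to 69.6% in SF, 54.2 to 71.6% in SE, 53.4 to 68.4% in HS and 3.64 to 5.13% in V fat bodies. The study identified Deformed Wing Virus (DWV) among its reads, and the first step, from untreated to injected, ran with this share in every library, so that its part in that step cannot be told apart. Vitellogenin (Vg) was present at 41439 to 97431 CPM in V fat bodies, and the 26 cuticle genes of a marker list summed to 1205 to 2312 CPM over all fat body groups. Of the 7484 genes 100 are members, and 0 of them came from the 9 of 26 cuticle genes and 5 of 12 neuronal marker genes that passed the filter on mean level, from which nothing is drawn. The 12 neuronal genes summed to 734 to 848 CPM in V fat bodies and 785 to 901 CPM in V brains, so that their sum hardly sets the tissues apart. The neuronal gene LOC408525, a nicotinic acetylcholine receptor subunit, was below the 5 CPM minimum and had steps of 0.94 and 0.73, with means of 4.15 CPM in SF, 3.12 CPM in SE, 1.73 CPM in HS and 0.418 CPM in V fat bodies. Short lists of other cells that the samples could hold were read in the same way, with values described and not tested. The 1 gene of the hemocyte list, draper (LOC552479), was at 174 to 286 CPM in SF, 239 to 307 CPM in SE, 164 to 245 CPM in HS and 99.5 to 147 CPM in V fat bodies. Draper was also at 196 to 304 CPM in V brains, so that its level is not particular to hemocytes in fat body samples. The 2 oenocyte genes, Cyp4g11 and a fatty acid elongase gene, summed to 12126 to 27403 CPM in SF, 19074 to 24606 CPM in SE, 13331 to 42499.5 CPM in HS and 32055 to 50316 CPM in V fat bodies. The 1 axonemal dynein gene of a sperm list was at 5.70 to 8.55 CPM in SF, 4.97 to 9.24 CPM in SE, 9.36 to 11.6 CPM in HS and 8.39 to 12.1 CPM in V fat bodies. In V brains this dynein gene was at 17.3 to 19.9 CPM. The part of these cells in the steps was not tested. One HS library, queen H74, was the highest of the 5 HS fat bodies in 72 of the 100 genes, against 29.6% of all 7484 genes. It also had the largest unaligned share among HS fat bodies, and results that rest on it are given below with and without it.

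The 100 genes took up 7.60% ± 0.758 of all reads on genes in SF, 7.06% ± 0.552 in SE, 5.03% ± 0.732 in HS and 2.99% ± 0.184 in V fat bodies (SD, n = 5 each). These shares spanned 7.11 to 8.93% in SF, 6.29 to 7.81% in SE, 4.29 to 6.20% in HS and 2.74 to 3.24% in V fat bodies. No library of one level overlapped one of another except between SF and SE, which describes the choice and supports nothing further. Def1, the defensin 1 gene, alone took up 1.796% of all reads on genes in SF, 1.47% in SE, 1.07% in HS and 0.601% in V fat bodies. The first step, HS minus V, was between 0.36 and 2.17 with a median of 0.65, and the second, SF and SE minus HS, was between 0.36 and 1.78 with a median of 0.51, where the medians of all 7484 genes were 0.07 and -0.05. With TMM-scaled libraries the members' medians were 0.57 and 0.57, and those of all genes -0.0026 and 0.0054. Both steps were above 0 in 1965 of the 7484 genes. The first step was the larger one in 71 and the second in 29 of the 100 genes. This order rested on H74, without which the first was the larger in 42 and the second in 58 genes, with medians of 0.55 and 0.60 (0.06 and -0.04 over all genes), and with TMM scaling the numbers were 53 and 47. The mean CPM of SF and SE queens was 1.70 to 11.6 times that of V queens, with a median of 2.37.

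**Figure D1:**
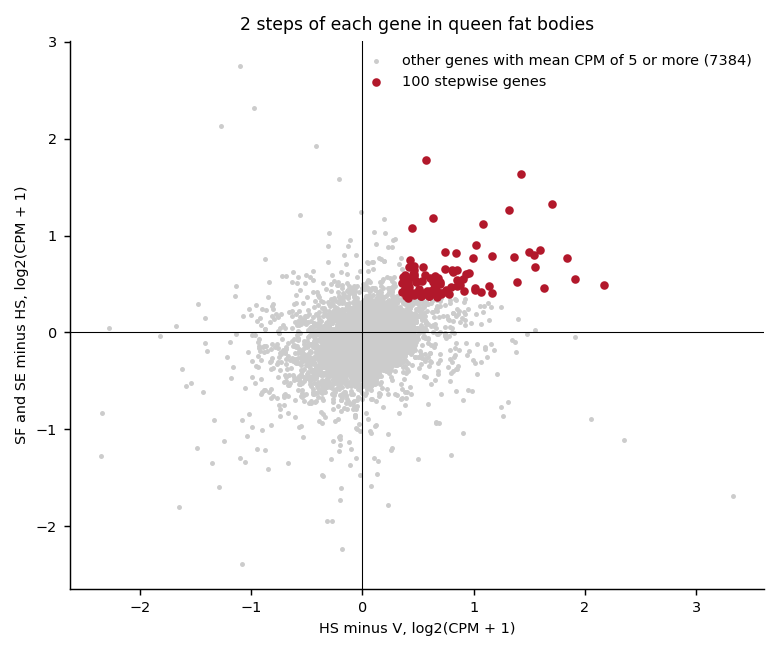
The difference between HS and V fat bodies (x axis) is plotted against the difference between SF with SE and HS fat bodies (y axis), both as means of log2(CPM + 1), for 7484 genes. The 100 chosen genes (red) lie in the upper right corner, with medians of 0.65 and 0.51, and all other genes (grey) are centred near 0 on both axes.

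Of the 100 genes, 91 were annotated as protein-coding, 6 as long non-coding RNAs, 2 as microRNA genes and 1 as ribosomal RNA. The mean level in SF and SE queens was under 10 CPM in 10 genes, 10 to 100 CPM in 42, 100 to 1000 CPM in 34 and over 1000 CPM in 14. In V queens, 51 of the 100 genes were higher in fat body than in brain, as were 33.3% of all 7484 genes. Several members lay beside each other. The serine protease genes LOC724208 and LOC724250 and LOC409378 were consecutive genes on chromosome 15, with 2779 and 2294 bases between them, and the hexamerin genes HEX70b and Hex70a were neighbours on chromosome 8, 2514 bases apart. The microRNA genes Mir87-1 and Mir87-2 stood 499 bases apart on chromosome 13. In 37 members the annotated gene overlapped another gene. Reads were counted over whole genes, introns included, and the strand setting is not given in the sources used here, so that reads of overlapping genes cannot be told apart.

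The stepwise order of the means was less complete among single libraries. Every HS fat body was above every V fat body in 41 of the 100 genes (8.31% of all 7484 genes), and every SF and SE fat body was above every HS fat body in 5 (0.214%). Both separations held in 2 genes (0.0534%), which were Calpb, encoding the calcium-dependent protease calpain-B, and the long non-coding RNA gene LOC100577890. Without H74, the second separation held in 33 genes (1.24%) and both in 19 (0.307%), and the first in 43 (9.7%). These counts describe the choice and support nothing further. SF queens alone lay above all HS queens in 11 genes (0.668%) and SE queens alone in 21 (1.12%). At the limit of the list, the smaller step was 0.37, 0.37, 0.36, 0.36 and 0.36 in the genes ranked 96 to 100 and 0.35 in each of the 5 genes that came next. The first 5 were LOC725305, LOC727239, LOC552556 (arginase-1-like), LOC100577725 and LOC551434 (selenium-binding protein 1-like), and those after the limit were LOC725611, LOC726880, LOC725269, LOC409127 and LOC725093. No gap separated members from non-members.

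Serine proteases and a protease inhibitor were among the members, 3 of them with ranks 1, 4 and 11 and LOC724703 with rank 55. LOC724250, a serine protease named snake in the study's text and serine protease 10 in its tables, snake being a Drosophila protease of the dorsal-ventral cascade, had rank 1 (chromosome 15, bases 3812648 to 3815066, build Amel_HAv3.1). LOC724250 had 35.2, 71.9, 18.5, 33.6 and 23.6 CPM in SF and 23.8, 16.9, 45.3, 24.04 and 28.2 CPM in SE fat bodies, against 5.24, 6.22, 8.17, 18.5 and 10.2 CPM in HS and 4.99, 3.61, 1.502, 1.78 and 2.36 CPM in V fat bodies. All SF and SE values but that of S27 were at or above the highest HS value, that of H74, and all HS values were above all V values. Mean levels were 36.6 ± 20.9 CPM in SF, 27.7 ± 10.6 CPM in SE, 9.65 ± 5.27 CPM in HS and 2.85 ± 1.44 CPM in V fat bodies (SD, n = 5 each), and the mean of SF and SE queens together was 11.3 times that of V queens.

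LOC724208, annotated as serine protease snake-like, lies beside it (chromosome 15, bases 3808079 to 3810354) and was far more abundant. LOC724208 had 2365, 4752, 2393, 3187 and 2452 CPM in SF and 2265, 1804, 2699, 2654 and 2865 CPM in SE fat bodies, against 1443, 1302, 1285, 2420.2 and 1519 CPM in HS and 536, 505, 664, 573 and 756 CPM in V fat bodies. The highest HS value was again that of H74, and without it every SF and SE library was above every HS library. LOC724703, annotated as serine protease 49, had steps of 0.66 and 0.44. LOC724703 had 575, 713, 613, 699 and 656 CPM in SF and 504, 527, 649, 481 and 633 CPM in SE fat bodies, against 401, 372, 372, 617 and 492 CPM in HS and 236, 308, 292, 269.9 and 291 CPM in V fat bodies. Here the groups differed by less than in the snake-like genes, and H74 reached into the range of the SF and SE queens.

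LOC100578030, annotated as antitrypsin-like and thus of the serpin family of protease inhibitors, had rank 4 (chromosome 11, bases 6468018 to 6485934). LOC100578030 had 3624, 5088, 3691, 3767 and 3886 CPM in SF and 3314, 3389.6, 4139, 3063 and 4138 CPM in SE fat bodies, against 1567, 1197, 1637, 3911 and 1294 CPM in HS and 812, 864, 735, 1028 and 692 CPM in V fat bodies. The other 4 HS queens were between 1197 and 1637 CPM, while H74 was within the range of the SF and SE queens. Steps were 1.08 and 1.12, and the mean of SF and SE queens was 4.61 times that of V queens. Of 6 genes that the study's tables name as serine proteases or serpins, all 6 passed the filter on mean level and these 4 were members. The other 2 had no such order or smaller steps. LOC726126, named serine protease 8, averaged 42.6 CPM in SF and 26.9 CPM in SE, against 72.8 CPM in HS and 85.5 CPM in V fat bodies, and LOC726320, annotated as serpin B3-like, averaged 124.8 CPM in SF and 140.9 CPM in SE, against 106 CPM in HS and 91.5 CPM in V fat bodies. That list holds only names from tables of genes that differed in these same libraries, and its count is no independent evidence.

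A few genes of immune recognition and defence were among the members, and others were not. Def1 encodes defensin 1, an antimicrobial peptide of bee hemolymph and royal jelly (chromosome 6, bases 8673495 to 8675023). Def1 had 16785, 23719, 19856, 14283 and 15134 CPM in SF and 20116, 11450.0, 13078, 13604 and 15275 CPM in SE fat bodies, against 11141, 7759, 10495, 15987 and 8150.2 CPM in HS and 4324, 8227, 5924, 6393 and 5179.8 CPM in V fat bodies. Levels were 17955 ± 3862 CPM in SF, 14705 ± 3319 CPM in SE, 10707 ± 3292 CPM in HS and 6009.6 ± 1466 CPM in V fat bodies (SD, n = 5 each). H74 had the highest HS value and the other 4 HS queens lay below every SF and SE queen. The other measured antimicrobial peptide gene of the list, Apid1 (apidaecin 1), did not follow this order, with 4133 ± 2071 CPM in SF, 2591 ± 1176 CPM in SE, 4013 ± 1529 CPM in HS and 4752 ± 2359 CPM in V fat bodies (SD, n = 5 each). Def2 was at 0 in every library.

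LOC725832, annotated as beta-1,3-glucan recognition protein 2, belongs to the proteins that bind fungal and bacterial cell walls (chromosome 4, bases 8883013 to 8886627). LOC725832 had 472, 684, 425, 556 and 482 CPM in SF and 396, 449, 555, 439 and 647 CPM in SE fat bodies, against 339, 264, 335, 489 and 329.9 CPM in HS and 184, 195, 202, 185 and 184 CPM in V fat bodies. V queens varied little, and all HS queens were above them. cact1 is a homolog of Drosophila cactus, which holds the Toll pathway's transcription factors in the cytoplasm and is itself a target of that pathway (chromosome 4, bases 11569669 to 11576607). cact1 had 67.6, 214, 66.3, 55.02 and 64.96 CPM in SF and 50.7, 62.7, 51.6, 37.3 and 56.9 CPM in SE fat bodies, against 45.3, 29.8, 33.5, 72.1 and 40.5 CPM in HS and 27.2, 29.1, 35.3, 30.2 and 30.6 CPM in V fat bodies. Its high SF mean rested in part on queen SP16, and its SE and HS values overlapped. cact1 belonged to no list and is named for its small p in brains, below. Of the 2 genes of the immune signalling list, both of which passed the filter, LOC725832 was a member. The other, LOC724779, annotated as toll-like receptor 13-like, averaged 1645 CPM in SF and 1012 CPM in SE, against 2306 CPM in HS and 2636 CPM in V fat bodies, with steps of -0.27 and -0.79.

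**Figure D2:**
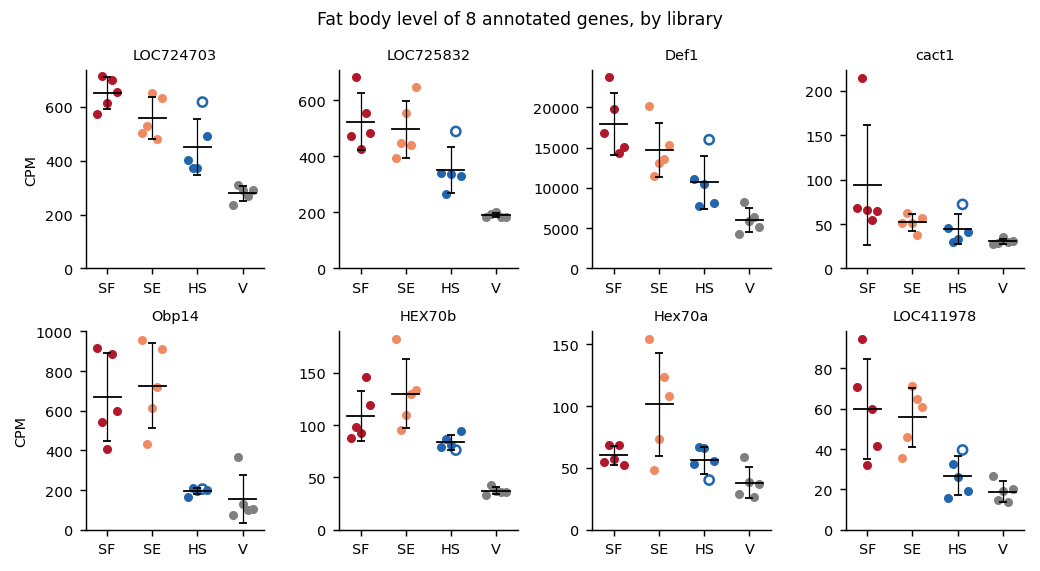
Fat body levels (CPM, y axis from 0) of 8 annotated members are shown for each of the 5 SF, 5 SE, 5 HS and 5 V libraries (points), with the mean (line) and SD (bars) of each group. The open circle marks the HS queen H74. Def1 lay between 11450 and 23719 CPM in SF and SE queens and between 4324 and 8227 CPM in V queens, and Obp14 was higher in all SF and SE queens than in all HS and V queens.

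Obp14 encodes odorant binding protein 14, a soluble carrier of small hydrophobic molecules (chromosome 15, bases 1924191 to 1926002). Obp14 had 916, 541, 409, 884 and 601 CPM in SF and 956, 434, 613, 718 and 909 CPM in SE fat bodies, against 167, 211, 193, 205 and 198 CPM in HS and 74.3, 367, 128, 101.2 and 107 CPM in V fat bodies. The SF and SE values did not overlap with the HS or V values. Its second step, 1.78, was the largest of the 100 genes, while the first step of 0.57 came with a V queen, C49, above all HS queens. The remaining chemosensory genes of the list gave no other member, with 12 of 24 passing the filter on mean level. Of those passing, besides Obp14, only the chemosensory protein gene CSP3 had both steps above 0, at 0.31 and 0.02. CSP1, CSP2, Obp11, Obp15, Obp17, Obp19 and Obp21 had both below 0, at -0.90 and -1.01 in CSP1.

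LOC113219298 encodes a G protein-coupled receptor that the study names Mth2-like, after the methuselah family of Drosophila (chromosome 16, bases 719511 to 721073). It was a gene of low level. LOC113219298 had 7.15, 12.7, 7.42, 9.35 and 11.4 CPM in SF and 10.6, 14.2, 18.5, 7.56 and 12.5 CPM in SE fat bodies, against 3.93, 5.37, 3.63, 9.72 and 8.13 CPM in HS and 0.886, 1.78, 2.54, 2.83 and 2.57 CPM in V fat bodies. All V queens were below all others, and HS queens overlapped with SF and SE queens. LOC411978, which the study names myrosinase 1 (a beta-glucosidase), lay 2 genes away from the UDP-glycosyltransferase gene LOC413043 on chromosome 6, and both are of families that handle sugar conjugates. LOC411978 had 70.8, 94.6, 31.9, 60.1 and 41.3 CPM in SF and 35.4, 46.3, 71.3, 64.8 and 61.1 CPM in SE fat bodies, against 15.7, 32.9, 26.3, 39.6 and 19.4 CPM in HS and 26.6, 14.7, 19.2, 13.7 and 20.4 CPM in V fat bodies. The SF and SE values overlapped with the HS values, with steps of 0.44 and 1.08. LOC413043 had steps of 0.63 and 1.19, and 1 HS value, that of H74 at 206 CPM, against 54.9, 43.8, 54.4 and 81.5 CPM in the other HS queens.

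Some storage protein genes were among the 100, whereas the mean of the yolk protein gene was lower in all injected groups than in V queens. HEX70b and Hex70a encode hexamerins, amino acid stores that larvae and adults keep in the fat body and hemolymph. HEX70b had 87.4, 98.2, 92.5, 146 and 119 CPM in SF and 183, 95.7, 109.9, 129.9 and 133 CPM in SE fat bodies, against 78.8, 86.7, 80.98, 76.2 and 94.8 CPM in HS and 33.7, 43.2, 37.2, 36.4 and 36.5 CPM in V fat bodies. All SF, SE and HS values were above all V values, and SF and SE values overlapped with the highest HS value alone. Hex70a had 54.6, 68.3, 56.9, 68.4 and 52.7 CPM in SF and 154, 48.4, 73.6, 124 and 108 CPM in SE fat bodies, against 53.4, 67.2, 65.8, 40.2 and 55.3 CPM in HS and 29.1, 58.5, 38.9, 26.8 and 37.3 CPM in V fat bodies. SF and HS queens overlapped almost wholly in Hex70a, and the second step of 0.43 came mainly from 3 SE queens. Of the 7 fat body marker genes, 6 passed the filter and these 2 were members. The hexamerin gene Hex110 had steps of 0.64 and 0.16, and A4 (apolipophorin-III-like) of 0.28 and 0.51. Hex70c was below the filter, with steps of 0.54 and -0.63. Its means were 0.846 CPM in SF, 0.755 CPM in SE, 1.73 CPM in HS and 0.869 CPM in V fat bodies. Among the others, Vg was at 26366 ± 14383 CPM in SF, 27236 ± 7295 CPM in SE, 21745 ± 9503 CPM in HS and 59640 ± 23246 CPM in V fat bodies, and Tsf1 (transferrin 1, an iron carrier) at 30959 ± 7307 CPM in SF, 21040 ± 4301 CPM in SE, 15523 ± 10303 CPM in HS and 17225 ± 4312 CPM in V fat bodies (SD, n = 5 each). LOC551651, annotated as the heavy chain of ferritin 1, which stores iron, had steps of 0.42 and 0.47. LOC551651 had 2551, 2794, 2309, 3012 and 2529 CPM in SF and 2855, 2848, 3048, 2181 and 2663 CPM in SE fat bodies, against 1728, 1686, 2000.0, 2403 and 1855 CPM in HS and 1460.5, 1634, 1378, 1443 and 1295 CPM in V fat bodies. Its V queens were below all others.

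Among the 15 genes ranked first, several had no annotation beyond their number. LOC408959 had rank 2 and showed the largest fold over V queens, 11.6. LOC408959 had 18.7, 62.4, 24.04, 31.3 and 17.4 CPM in SF and 21.3, 23.8, 24.003, 21.3 and 41.9 CPM in SE fat bodies, against 9.39, 14.4, 4.09, 22.7 and 7.24 CPM in HS and 1.73, 2.63, 4.10, 1.63 and 2.28 CPM in V fat bodies. V and HS queens overlapped in 1 queen, and H74 was again the highest HS queen. LOC724398 had rank 3. LOC724398 had 15.03, 78.2, 49.998, 46.9 and 63.98 CPM in SF and 48.2, 64.2, 45.5, 18.7 and 59.7 CPM in SE fat bodies, against 12.7, 17.5, 11.9, 65.7 and 9.78 CPM in HS and 7.97, 3.86, 4.67, 12.9 and 6.18 CPM in V fat bodies. The HS mean of LOC724398 rested on H74, whose value was within the range of the SF and SE queens. LOC107965072 had rank 6. LOC107965072 had 163, 166, 194, 119.7 and 206 CPM in SF and 279.6, 143, 187, 201 and 249 CPM in SE fat bodies, against 83.6, 81.6, 105.4, 168 and 94.2 CPM in HS and 24.2, 75.2, 34.2, 23.6 and 27.5 CPM in V fat bodies. The V queen C49 stood apart from the other 4 V queens.

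LOC724654, annotated as cytochrome b5 type B-like, a heme protein that carries electrons, had rank 7 (chromosome 5, bases 12759076 to 12760360). LOC724654 had 179.8, 257, 129.9, 118 and 154 CPM in SF and 91.5, 118, 108, 82.2 and 163 CPM in SE fat bodies, against 98.6, 51.9, 56.2, 131 and 60.4 CPM in HS and 21.4, 33.3, 22.96, 25.4 and 27.2 CPM in V fat bodies. The SF queens were the highest group and SE and HS queens overlapped. LOC410227 had rank 8. LOC410227 had 143, 373, 149, 149 and 150.2 CPM in SF and 130.4, 162, 132, 99.6 and 174 CPM in SE fat bodies, against 75.9, 66.4, 73.8, 190.0 and 75.5 CPM in HS and 40.9, 68.3, 46.7, 42.97 and 48.9 CPM in V fat bodies. SP16 among SF queens and H74 among HS queens stood apart in LOC410227. LOC100579019 had rank 9. LOC100579019 had 12.9, 78.6, 14.8, 36.2 and 63.98 CPM in SF and 35.8, 184, 14.9, 6.13 and 19.1 CPM in SE fat bodies, against 16.2, 3.76, 18.6, 14.3 and 63.03 CPM in HS and 7.23, 1.47, 3.54, 7.14 and 9.04 CPM in V fat bodies. The SE queen S27 and the HS queen H75 stood apart in it, and SF, SE and HS queens overlapped.

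LOC410959, named kinesin 12 in the study's tables, a motor protein of microtubules, had rank 12. LOC410959 had 81.6, 104, 66.1, 61.1 and 82.8 CPM in SF and 62.7, 65.3, 70.3, 60.03 and 46.1 CPM in SE fat bodies, against 31.8, 45.1, 25.1, 81.7 and 33.04 CPM in HS and 7.88, 12.001, 15.9, 8.97 and 8.79 CPM in V fat bodies. All injected queens were above all V queens. LOC100578839, a long non-coding RNA gene of rank 5, overlaps Calpb on chromosome 2, and both were members. LOC100578839 had 57.2, 89.8, 48.9, 77.1 and 59.99 CPM in SF and 62.7, 75.2, 63.5, 55.1 and 91.7 CPM in SE fat bodies, against 28.9, 29.5, 30.1, 56.6 and 37.5 CPM in HS and 19.5, 15.4, 15.7, 16.8 and 17.3 CPM in V fat bodies. Calpb had 374, 535, 353, 475 and 355 CPM in SF and 389, 408, 376, 406 and 426 CPM in SE fat bodies, against 259, 251, 240.3, 319.6 and 282 CPM in HS and 205, 174, 214, 222 and 217 CPM in V fat bodies. The groups SF and SE, HS, and V did not overlap in Calpb. LOC494509 had rank 15 and overlaps LOC412617, annotated as thyroid receptor-interacting protein 6-like, on chromosome 14. LOC494509 had 3183, 4998, 3592, 4122 and 4192 CPM in SF and 2898, 3027, 3913, 2826 and 4178 CPM in SE fat bodies, against 3125, 1394, 1811, 3752 and 2056 CPM in HS and 506, 663, 917, 890.2 and 1012 CPM in V fat bodies. LOC412617 had 84.98, 117, 71.5, 119.7 and 82.1 CPM in SF and 72.4, 85.3, 96.9, 63.7 and 103 CPM in SE fat bodies, against 54.6, 55.96, 57.7, 91.6 and 52.5 CPM in HS and 35.4, 31.96, 43.1, 39.7 and 36.7 CPM in V fat bodies. V queens were below all others in both genes, and H74 lay within the SF and SE range in LOC412617. The long non-coding RNA gene LOC113218549 had rank 13. LOC113218549 had 239.9, 359, 272, 208 and 228 CPM in SF and 147, 166, 144, 135 and 216 CPM in SE fat bodies, against 173, 82.8, 150.4, 177 and 59.5 CPM in HS and 30.6, 93.6, 62.1, 83.1 and 46.2 CPM in V fat bodies. Its SF values were above all other values but one SE value, and SE and HS queens overlapped. The precursor gene of the microRNA Mir87-1 had rank 14. Mir87-1 had 51.3, 42.1, 31.2, 43.7 and 43.1 CPM in SF and 48.4, 51.6, 37.02, 35.99 and 48.8 CPM in SE fat bodies, against 22.7, 26.9, 17.7, 29.2 and 22.9 CPM in HS and 12.2, 19.8, 14.2, 10.6 and 13.2 CPM in V fat bodies. All SF and SE queens were above all HS queens in Mir87-1, where the counts cover the annotated gene and do not measure the mature microRNA.

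**Figure D3:**
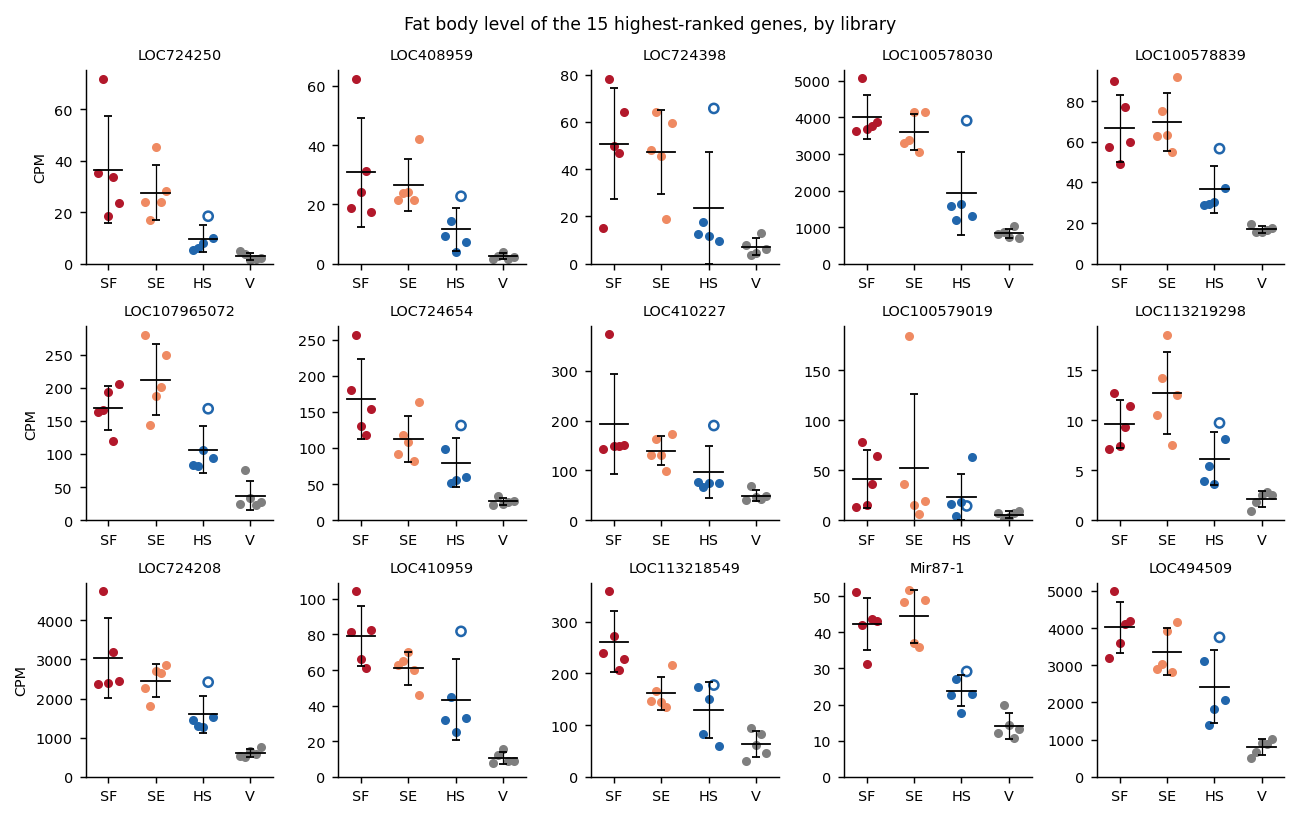
Fat body levels (CPM, y axes from 0, which differ between panels) of the 15 genes ranked first are shown by library for SF, SE, HS and V queens (5 points each), with mean (line) and SD (bars, drawn down to 0 at most). The open circle marks the HS queen H74, which lay at 65.7 CPM in LOC724398 and 3911 CPM in LOC100578030, within the range of SF and SE queens.

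The contrast between the ejaculate groups, which the choice of genes did not use, was tested in the 15 injected fat bodies. SE and SF queens were compared with edgeR's quasi-likelihood test over 8201 genes, with Benjamini-Hochberg adjustment. None of the 100 genes passed an adjusted p of 0.05 in either direction, and neither did any other gene (0.0% called), with a smallest adjusted p of 0.899. At an unadjusted p under 0.05, 3 members were higher (2.32% of all genes) and 10 lower (3.02%) in SE queens, and DESeq2 called 0 genes with 444 under an unadjusted p of 0.05. The members' median log2 fold change was -0.03, that of all genes 0.0066. On log2(CPM + 1) without TMM, SE minus SF was above 0 in 55 of 100 members and in 70.3% of all genes, with a members' median of 0.05. Def1 had a log2 fold change of -0.36 ± 0.24 (standard error) and Hex70a of 0.70 ± 0.25, neither of which passed the adjusted threshold. A p above the threshold does not show that both fluids gave the same levels.

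Among the 15 injected fat bodies, level and unaligned share were positively correlated in 78 of the 100 genes, with a median r of 0.17, and in 70.1% of all genes, with a median r of 0.16. This is a description over libraries that share this measure with their depth on genes. Membership was also read under other settings. With SE libraries alone 82 of the 100 genes were chosen again, and with SF libraries alone 75. TMM scaling kept 81, and leaving out H74 kept 74, the fewest of any single library.

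The same genes were then examined in brains, where 99 of the 100 passed the filter on counts. The study's first analysis found no gene that differed in any brain comparison. After viewing plots of its samples, it set aside those with the lowest rates of reads aligned to DWV and retained 11 injected brains. The SE queen S83 and the SF queen SP16, with unaligned shares of 4.05 and 6.08%, were left out. In the retained brains, 33 members were higher in SF than in HS brains (4.47% of 9030 genes) and 0 lower (3.46%), by edgeR's quasi-likelihood test at an adjusted p under 0.05. The members' median log2 fold change was 0.48, against -0.0025 over all genes, and 88 of 99 members were above 0, against 4473 of 9030 genes. Only 2 SF brains entered this test, and the count was 5 without SP76 (0.341% of 9085 genes) and 21 without SP1 (1.27% of 9118 genes), where the lone SF brain is assumed to vary like the other groups. With the sequencing lane in the model 9 were higher (0.609%), and with all 18 brains 0 (0.0%), although 25 were higher at an unadjusted p under 0.05 (5.35%).

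The genes with the smallest p were cact1, LOC102653894, LOC409533, LOC113219298 and LOC724250. The SF and SE values listed by gene with these tests are those of the retained brains, without SP16 and S83. cact1 had 45.6 and 47.5 CPM in SF and 37.3, 39.7, 44.6 and 36.4 CPM in SE brains, against 32.4, 29.7, 29.7, 29.4 and 30.6 CPM in HS brains. The left-out brains SP16 and S83 and the V brains C64, C68 and C77 lay below every HS brain in cact1. Among the retained brains, its SF values were above all SE and HS values. The log2 fold change over HS was 0.70 ± 0.08 (adjusted p = 0.00236, edgeR). That call held without any 1 of the 11 libraries, and the untreated V brains C20 and C49 were at 42.9 and 49.3 CPM. LOC409533, annotated as annexin-B9-like, of a family that binds membranes in the presence of calcium, rose by 0.76 ± 0.09 (adjusted p = 0.00236). LOC409533 had 889 and 907 CPM in SF and 631, 754, 733 and 671 CPM in SE brains, against 588, 488, 559, 578 and 583 CPM in HS brains. The 3 groups of retained brains did not overlap. The left-out brains SP16 and S83 lay below every HS brain, and V brains had 981, 875, 485, 549.9 and 500.2 CPM. LOC102653894 rose by 1.12 ± 0.13 (adjusted p = 0.00236). LOC102653894 had 81.04 and 95.8 CPM in SF and 37.1, 41.4, 37.02 and 37.9 CPM in SE brains, against 41.04, 35.5, 50.9, 41.7 and 45.99 CPM in HS brains. Its SE and HS brains overlapped.

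The receptor gene LOC113219298 showed the largest difference, 4.55 ± 0.54 in SF over HS brains (adjusted p = 0.00236), with the call kept without any 1 of the 11 libraries. LOC113219298 had 8.60 and 8.81 CPM in SF and 8.60, 11.3, 14.6 and 7.38 CPM in SE brains, against 1.15, 0.0599, 0.167, 0.125 and 0.695 CPM in HS brains. The HS brains held few reads of it, so that the size of the fold is uncertain. The retained SF and SE brains lay far above the HS brains. The serine protease LOC724250 rose by 2.44 ± 0.31 in SF brains (adjusted p = 0.00284). LOC724250 had 6.80 and 8.62 CPM in SF and 1.91, 1.43, 3.20 and 1.78 CPM in SE brains, against 2.18, 1.14, 1.75, 0.999 and 1.64 CPM in HS brains. Of other annotated members, Obp14 was higher by 2.40 ± 0.42 (adjusted p = 0.0131), LOC724703 by 0.98 ± 0.15 (adjusted p = 0.00841), LOC724208 by 1.56 ± 0.30 (adjusted p = 0.0170), LOC100578030 by 0.73 ± 0.15 (adjusted p = 0.0234) and LOC725832 by 1.52 ± 0.39 (adjusted p = 0.0406). For Def1, the value was 1.51 ± 0.59 (adjusted p = 0.131), which did not pass. Of the calls named here, all but those of cact1, LOC102653894, LOC409533 and LOC113219298 were lost without SP76.

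Markers of fat body were also read in brains. The 7 genes summed to 21677 and 23433 CPM in the SF brains SP1 and SP76, against 8952 to 21577 CPM in HS brains. The highest HS brain, H73, was thus close to SP1. Sums were 8851 to 9647 CPM in the 4 retained SE brains, 10834 CPM in SP16, 18646 CPM in S83 and 12651 to 20498 CPM in V brains. Of the list, HEX70b (0.36 ± 0.14, adjusted p = 0.139, edgeR) and Hex70a (1.44 ± 0.43, adjusted p = 0.0641) did not pass in SF over HS brains. Vg was at 4462 to 9999 CPM in all 3 SF and 1117 to 8508 CPM in the 5 HS brains, and Hex70c, a storage protein gene of the list, was near 0 in all brains, as it was in fat bodies. Among members, SF brains were higher than HS brains in 4 of the 14 genes that were at least 4-fold higher in fat body than in brain of V queens, in 18 of the 36 that were 1 to 4-fold higher, and in 11 of the 49 that were higher in brain. These counts were not set against all genes of the same classes, so that nothing is drawn from the split. The part of fat body RNA in these brain differences was not tested.

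In SE brains, 6 members were higher than in HS brains (0.598% of 9030 genes) and 0 lower (0.642%), with a members' median of 0.07 and 0.0081 for all genes. They were LOC726201, LOC113219298, LOC412799, LOC412487, LOC412617 and cact1, and all 6 were also among those higher in SF brains, a contrast that shares the HS brains. LOC726201 had 49.1 and 51.1 CPM in SF and 55.99, 52.99, 54.3 and 63.2 CPM in SE brains, against 36.1, 37.1, 31.1, 36.2 and 33.3 CPM in HS brains. The retained SE brains lay above all HS brains, by 0.66 ± 0.06 (adjusted p = 0.000384). Of the left-out brains, S83 lay within the HS range and SP16 above it. The receptor gene LOC113219298, given above, was higher by 4.68 ± 0.49 (adjusted p = 0.00067). LOC412487 had 139.8 and 154 CPM in SF and 140.3, 145, 169 and 138 CPM in SE brains, against 106, 78.5, 86.2, 89.9 and 111 CPM in HS brains. The left-out brains S83 and SP16 lay within the HS range of LOC412487. LOC412487 rose by 0.61 ± 0.11 (adjusted p = 0.0230), LOC412799 by 0.37 ± 0.06 (adjusted p = 0.0219) and LOC412617 by 0.35 ± 0.06 (adjusted p = 0.0253). Of the 6, LOC726201 and LOC113219298 kept their calls without any 1 library, and cact1 in 1 of 11 such fits. DESeq2 called 12 members higher (1.76%), and 0 were called with the sequencing lane in the model (0.0664%; 16 at an unadjusted p under 0.05, 4.47%) or with all 18 brains (0.0%; 6 at an unadjusted p under 0.05, 5.3%). Leaving out H53, H73, H74, S24 or S29, each in turn, gave 2 or 3, of 24 to 28 genes called higher.

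Set against SF brains, SE brains had 16 members lower (1.81% of 9030 genes) and 0 higher (0.432%), with a members' median of -0.34. LOC102653894 fell by 1.33 ± 0.14 (adjusted p = 0.00894, edgeR), and its SE values given above lay below both SF values. LOC102656130, a long non-coding RNA gene, fell by 1.08 ± 0.17, LOC413697 by 0.97 ± 0.15 and LOC724250 by 2.03 ± 0.31 (adjusted p = 0.0209 each). LOC724654, the cytochrome b5 gene, fell by 2.68 ± 0.46 (adjusted p = 0.0332), Obp14 by 2.30 ± 0.44 (adjusted p = 0.0442) and Def1 by 2.84 ± 0.62 (adjusted p = 0.0479). LOC724654 had 21.3 and 27.7 CPM in SF and 2.88, 4.71, 5.83 and 3.51 CPM in SE brains, against 8.28, 2.70, 11.8, 4.18 and 4.86 CPM in HS brains. All 16 genes were higher in fat body than in brain of V queens, as were 51 of the 100 members and 33.3% of all 7484 genes. Of the 16, 6 were at least 4-fold higher, which was not counted over all genes. The sums of fat body markers given above were lower in the retained SE than SF brains. Of these markers, HEX70b (adjusted p = 0.310, edgeR) and Hex70a (adjusted p = 0.0897) did not pass between SE and SF brains. The part of fat body RNA in these calls was not tested. No member was called without SP76 (0.0% of 9085 genes; 31 lower at an unadjusted p under 0.05, 5.91%), with the unaligned share in the model (0.0%; 44, 10.4%) or with all 18 brains (0.0%; 26, 5.03%). The count also moved to 7, 27 and 9 without the HS queens H51, H73 and H75, of 41, 258 and 96 genes called lower. It moved to 1, 4, 6 and 2 without the SE queens S24, S27, S29 and S38, of 5, 38, 29 and 16 genes.

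**Figure D4:**
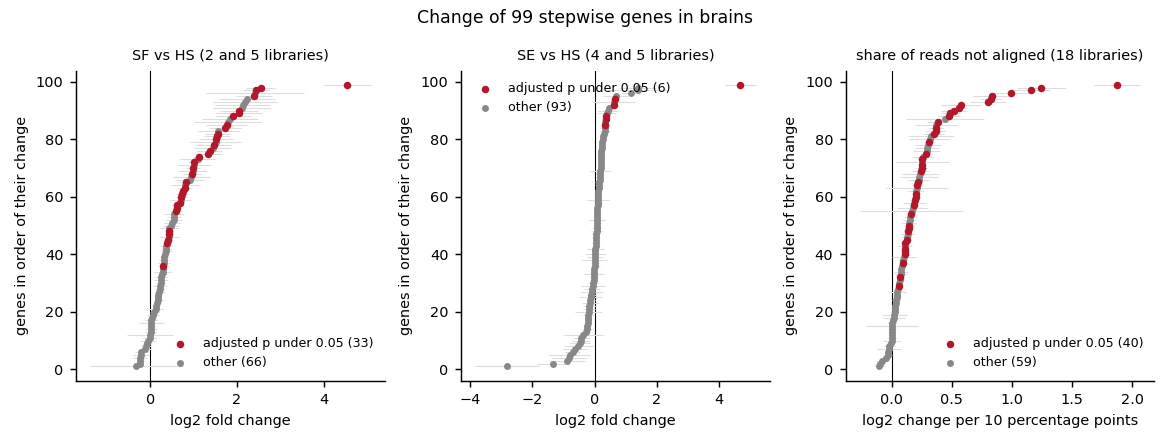
The log2 fold changes of 99 members in brains (x axis, with their standard errors) are drawn in order of size (y axis) for SF over HS, SE over HS, and per 10 percentage points of unaligned share. Red points passed an adjusted p of 0.05 by edgeR, 33, 6 and 40 genes.

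The injection of Hayes solution, the first step in fat bodies, was also tested in brains. Of 99 members, 0 differed between HS and V brains in a fit of all 18 libraries (0.0% of 9057 genes, edgeR), with 1 higher (2.64%) and 8 lower (3.12%) in HS brains at an unadjusted p under 0.05, and DESeq2 called 6 genes higher (0.0662%) and 2 lower (0.0221%), with 0 members among them. The members' median was -0.15, that of all genes -0.010. V brains were themselves unlike each other, since the unaligned share was 25.1% in C49 and 34.3% in C20, and 4.24 to 5.37% in the other 3. With that share in the model, 10 members were lower in HS brains (0.585%).

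In brains the unaligned share varied within all 4 groups and did not separate V from injected queens, and its coefficient was tested over all 18 brains with the treatment in the model. With a higher share, 40 members were higher (5.8% of 9057 genes) and 0 lower (2.99%). Of these 40, 21 were among the 33 higher in SF than in HS brains, an overlap that was not counted over all genes. Both fits hold the retained SF and HS brains. The coefficient, per 10 percentage points, had a median of 0.14 over the members and -0.0037 over all genes, and was above 0 in 89 of 99 members and in 4254 of 9057 genes. The count was 27 without SP16 (2.66%) and 6 with the sequencing lane in the model (0.32%; 50 at an unadjusted p under 0.05, 7.98%). It was 27 to 49 over the fits without 1 library, of 242 to 545 genes called higher. With the share added to the contrasts of the retained brains, 23 members were higher in SF than in HS brains (201 of 9030 genes). In that model, 8 members were higher in SE than in HS brains (56 of 9030 genes).

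LOC408959 had the smallest p, with a coefficient of 0.83 ± 0.08 (adjusted p = 6.34e-05). LOC408959 was at 14.4 and 19.6 CPM in the SF and 5.39 to 10.4 CPM in the SE brains with a high share, against 2.19 CPM in the SF brain SP16 and 1.20 CPM in the SE brain S83. In V brains, it was at 11.6 and 11.8 CPM in C20 and C49 and at 1.93, 2.65 and 2.07 CPM in the other 3. Values were higher in the high-share than in the low-share brains of the SF, SE and V groups, whereas HS brains, at 5.86, 2.22, 2.67, 2.37 and 2.84 CPM with unaligned shares of 22.1 to 53.6%, stayed mostly near the low level.

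The receptor gene LOC113219298 had the same arrangement in a more extreme form, with a coefficient of 1.87 ± 0.19 (adjusted p = 8.83e-05). Beside the SF and SE values given above, it was at 18.3 and 13.5 CPM in the V queens C20 and C49, which had received no injection, against 0.345 CPM in SP16, 0.116 CPM in S83 and 0.104, 0.221 and 0.172 CPM in the 3 V brains with a low share. The 5 HS brains were between 0.0599 and 1.15 CPM, so that these untreated brains exceeded every HS and SF brain, and S29 alone of the SE brains lay between them. LOC724398 had a coefficient of 1.16 ± 0.16 (adjusted p = 0.000754), with 51.2 and 89.6 CPM in C20 and C49 and 4.12, 4.10 and 3.06 CPM in the other V brains.

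In LOC113218549, the long non-coding RNA gene, the HS brains did not stand apart. It was at 120.1 and 133 CPM in SF, 109, 98.6, 82.4 and 109.9 CPM in SE, 145, 100.9, 123, 114 and 90.1 CPM in HS and 104 and 159.5 CPM in V brains with a share above 20%. In the 5 brains with a share below 10% it was at 5.24 CPM in SP16, 5.13 CPM in S83 and 7.46, 7.46 and 9.43 CPM in the V queens. The 2 sets of brains did not overlap, and the coefficient was 1.24 ± 0.20 (adjusted p = 0.00169). The antitrypsin-like gene LOC100578030 followed with 0.56 ± 0.08 (adjusted p = 0.000638), at 561 to 1343 CPM in the brains with a high share and 249 to 319.6 CPM in those with a low share. LOC412487 (0.29 ± 0.04) and LOC412799 (0.14 ± 0.02), both with an adjusted p of 0.000451, varied less. Def1, with 0.37 ± 0.18 (adjusted p = 0.206), did not pass, and HEX70b, with 0.00 ± 0.03 (adjusted p = 0.999), was near 0.

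**Figure D5:**
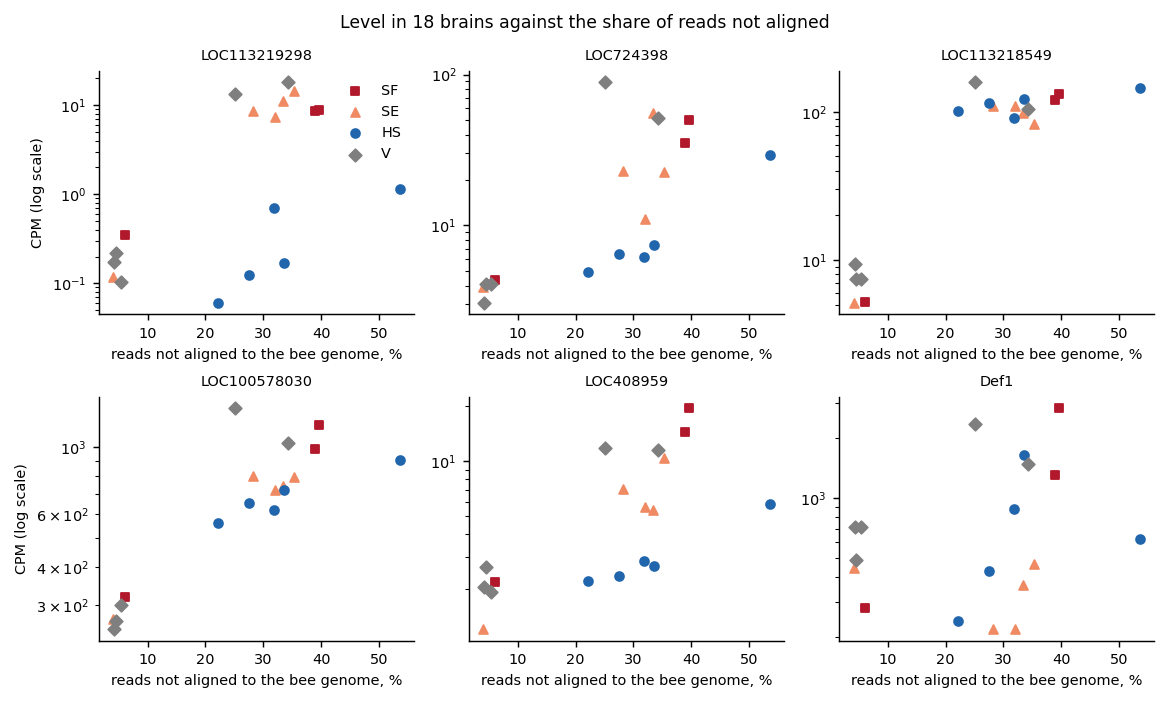
Brain levels of 6 members (CPM, log axis) are plotted against the unaligned share (% of all reads) in 3 SF, 5 SE, 5 HS and 5 V brains. In LOC113219298 and LOC724398 the HS brains, apart from H51 in LOC724398, lie low at the same shares at which SF, SE and 2 V brains lie high, whereas in LOC113218549 all brains with a share above 20% lie between 82.4 and 159.5 CPM.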

How the data were processed

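The authors trimmed reads with cutadapt 1.8.3, aligned them to Amel_HAv3.1 with HISAT2 2.1.0 and deposited raw HTSeq 0.9.1 counts per gene, without normalization. The 5 rows that name no gene, 25.03 to 78.6% of all reads of a library, were left out of library sizes and gave the percentage of unaligned reads. Genes were chosen on CPM, counts over the sum of gene rows, with 1 added before log2. Counts were tested in R 4.3.3 with edgeR 4.0.16 (quasi-likelihood, filter at a minimum count of 20, TMM, Benjamini-Hochberg adjustment, threshold 0.05). The study's methods used limma with the same filter and scaling. Brain contrasts between injected groups used the 11 libraries that the study retained, and the others all 18. Errors of fold changes are standard errors. Alternatives were DESeq2 1.42.0, other scalings and filters, the lane, the unaligned share, and each library left out. TMM scaling and left-out libraries for the steps, and the separations without H74, were chosen after seeing the data.

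The members and lists were chosen with earlier results of these data known. Named genes were the 15 ranked first, those at the limit, the 5 called members of smallest p in each contrast, members that the study names, and members of marker lists. Calpb, LOC100577890, LOC413043, LOC551651, LOC409378 and Mir87-2 were added after their values were seen. All 12332 gene identifiers matched RefSeq's table of the same build, which gives no gene descriptions, so that description-based lists hold only names from the study's own tables. The scripts were tested on simulated data. Each library is 1 queen, and brains come from queens whose fat bodies were also sequenced. The tissues were not tested against each other.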

Additional observations from a re-analysis of the deposited data

Results flagged for a closer look

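In 20 of 156 groups of 5 fat bodies and 9 of 117 groups of 5 brains, over 39 named genes, 1 library lay beyond Dixon's 95% limit from the other 4. The limit served only to pick values for a closer look. The fat body values had chosen the genes, and genes share their libraries, so that these counts cannot be set against chance. The HS queen H74 accounted for 9 in fat bodies, in each case above the other HS queens, with 65.7 CPM in LOC724398, 3911 CPM in LOC100578030, 168 CPM in LOC107965072, 189.98 CPM in LOC410227, 2420.2 CPM in LOC724208, 35.7 CPM in LOC726201, 91.6 CPM in LOC412617, 390.03 CPM in LOC102653894 and 206 CPM in LOC413043. The SF queen SP16 stood above the others with 5088 CPM in LOC100578030, 373 CPM in LOC410227 and 214 CPM in cact1. Among SE fat bodies S83 did so with 41.9 CPM in LOC408959 and 2537 CPM in LOC409533, S24 with 2789 CPM in LOC100577725 and S27 with 184 CPM in LOC100579019, in which the HS queen H75 also did with 63.0 CPM. The V queen C49 stood above the others with 75.2 CPM in LOC107965072, 206 CPM in LOC552556 and 367 CPM in Obp14.

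In brains, the SE queen S83 was lowest with 269.6 CPM in LOC100578030 and 5.13 CPM in LOC113218549. The HS queen H51 was highest with 5.86 CPM in LOC408959, 29.3 CPM in LOC724398 and 41.4 CPM in LOC107965072, and the HS queen H73 with 547 CPM in LOC725305, 32.0 CPM in LOC552556, 153 CPM in LOC100577725 and 8.44 CPM in Hex70a. Reads outside the gene counts were set apart as well, since 60.2% of reads on average were not aligned to the bee genome in the 15 injected fat bodies, against 4.09% in V fat bodies. The cause of these differences was not tested.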

How the results depend on the processing

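No paired analysis was possible because the groups compared come from different queens with no replicate number in common. Leaving out 1 library at a time gave 5 to 40 members higher in SF than in HS brains, 2 to 7 higher in SE than in HS brains, 0 to 27 lower in SE than in SF brains, and 27 to 49 higher and 0 to 1 lower with the unaligned share. Over all genes tested, the fits without 1 HS or SE brain called 183 to 458 higher for SF over HS. They called 24 to 53 higher for SE over HS and 5 to 271 lower for SE over SF. With the share, the fits without 1 library called 242 to 545 genes higher and 83 to 274 lower. Adding the sequencing lane gave 9, 0 and 6 members higher for SF over HS, SE over HS and the share. The genes called higher were 55, 6 and 29. Fitting all 18 brains gave 0 higher for SF over HS and SE over HS and 0 lower for SE over SF, a contrast that also gave 0 lower with the share in the model. DESeq2 gave 12 higher for SE over HS (1.76%), and 35 lower and 2 higher for SE over SF (570 and 166 of 9030 genes). Library sizes without TMM gave 2 higher for SE over SF (559 of 9030 genes). With the share in the model 10 members were lower in HS than in V brains (0.585%). In that model 23 members were higher in SF than in HS brains (201 of 9030 genes) and 8 in SE than in HS brains (56 of 9030 genes). Without H74, 33 members had SF and SE above HS in every fat body (1.24% of all genes) and 19 had both separations (0.307%). The cause of these changes was not tested. With library sizes alone the calls over all genes between SF and HS brains were 240 higher and 604 lower, against 404 and 312, with 32 members higher and 0 lower. Over the 59 named calls, no fit turned a direction, and 144 of 775 fits without 1 library and 108 of 448 other fits lost the call. Without 1 library, 74 to 96 of the 100 genes were chosen again, and 75 to 97 with the other settings. The SF brains number 2 in these tests, and members under 10 CPM rest on few reads.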
